A study of Rattus norvegicus with 10 samples.

Results

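The 6 genes described here encode proteins of the innate response to injury and bacteria: S100a8, S100a9, Lcn2, Cd14, Tlr4 and Tlr2. They were taken from the 32623 genes of the deposited tables by Ensembl identifier and chromosome, and all 6 were found. The tables hold identifiers and no gene names, so the names are those given with the identifiers; the RefSeq gene of each name lies on the same chromosome for 6 of 6, and on the same strand for the 5 that the promoter table lists. The study sequenced ribosomal-RNA-depleted RNA of the gastric mucosa of Sprague Dawley rats, with epithelial cells given as the cell type, in 5 groups of 2 libraries. In 1 group, oral indomethacin followed 30 min after an intraperitoneal dose of honokiol (40 mg/kg), a polyphenol from magnolia bark. The labels give no indomethacin dose for that group. The other treated groups received a non-steroidal anti-inflammatory drug (NSAID, an inhibitor of prostaglandin synthesis) by mouth: 48 mg/kg of indomethacin, 75 mg/kg of diclofenac or 400 mg/kg of aspirin. Tissue was taken after 4 h. The time label of the honokiol group is 0.5 h, the length of the lead of honokiol, so sampling at 4 h rests for that group on the general protocol. The labels name no treatment, and no vehicle, for the control libraries. Age and sex are not given, and the labels do not tie libraries to animals, so a p-value here reflects only how far these libraries spread. For honokiol plus indomethacin, aspirin and diclofenac that spread may be technical alone. The 2 control libraries differ in Y-chromosome reads, as do the 2 indomethacin libraries, so neither pair repeats the same RNA.

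S100a8 and S100a9 form calprotectin, a heterodimer that makes up much of the cytosolic protein of neutrophils, binds zinc, manganese and calcium, and is released at sites of tissue damage. Squamous keratinocytes also make both subunits when stressed. Lcn2, lipocalin 2, binds bacterial siderophores and so withholds iron; it is stored in neutrophil granules and made by epithelium during inflammation. CD14 hands lipopolysaccharide to the TLR4 complex and serves TLR2 as well. TLR4 recognises lipopolysaccharide and TLR2 recognises bacterial lipopeptides, and both signal to NF-kB; calprotectin itself has been described as a ligand of TLR4. In a piece of mucosa a gene's level reflects both which cells are present and how much RNA each holds, and the 2 cannot be told apart here. Marker genes of neutrophils, macrophages, squamous and glandular epithelium were not analysed here, since no identifier could be paired with their names, so the labelled cell type was not checked against its markers.

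Of the 5 members that stood above both controls in every NSAID library, S100a8 has no listed promoter. Cd14, also of those 5, is not printed, and its window held no match to the motifs searched. Shown are the sequences before the transcription starts of S100a9, Lcn2 and Tlr2, and of Tlr4, which did not stand above both controls. Each is the 250 bases before the RefSeq start in the GRCr8 assembly, 5′ to 3′ on the strand of the gene; capitals mark matches to any of 4 motifs, searched on both strands. The motifs were the NF-kB consensus, a C/EBP motif TTGCNNAA, the AP-1 motif TGANTCA and the TATA box TATAAA. S100a9 is chr2:178490623-178490872 (minus strand), Lcn2 is chr3:36081781-36082030 (minus strand), Tlr2 is chr2:171504558-171504807 (minus strand) and Tlr4 is chr5:85160997-85161246 (plus strand).
S100a9: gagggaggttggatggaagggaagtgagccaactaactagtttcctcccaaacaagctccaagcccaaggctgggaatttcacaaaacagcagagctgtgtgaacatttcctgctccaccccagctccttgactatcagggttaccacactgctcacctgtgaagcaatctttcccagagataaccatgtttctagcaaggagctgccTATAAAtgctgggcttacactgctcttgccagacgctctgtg
Lcn2: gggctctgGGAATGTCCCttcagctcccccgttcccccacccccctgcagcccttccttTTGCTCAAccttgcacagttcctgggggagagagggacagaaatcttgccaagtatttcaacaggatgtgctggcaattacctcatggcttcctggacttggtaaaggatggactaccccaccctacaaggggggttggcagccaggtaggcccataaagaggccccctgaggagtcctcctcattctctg
Tlr2: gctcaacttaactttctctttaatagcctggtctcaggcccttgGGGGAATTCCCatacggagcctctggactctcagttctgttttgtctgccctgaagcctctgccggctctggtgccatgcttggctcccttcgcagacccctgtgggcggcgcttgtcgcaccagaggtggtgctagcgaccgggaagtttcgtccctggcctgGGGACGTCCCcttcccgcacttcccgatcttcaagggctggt
Tlr4: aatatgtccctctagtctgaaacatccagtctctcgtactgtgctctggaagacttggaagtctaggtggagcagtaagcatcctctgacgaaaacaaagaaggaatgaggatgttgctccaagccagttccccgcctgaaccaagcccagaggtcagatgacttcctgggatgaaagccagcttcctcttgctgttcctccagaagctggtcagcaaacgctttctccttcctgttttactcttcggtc
In the S100a9 sequence the capitals are a TATA box that begins 42 bases before the start. In the Lcn2 sequence they are an NF-kB consensus match on the other strand, from 242 to 233 bases before the start, and a C/EBP match from 191 to 184 bases before it. Tlr2 has NF-kB consensus matches at 2 places, a run from 206 to 196 and one from 42 to 33 bases before the start, and the first of these holds matches that overlap each other. No motif of the 4 was found in the Tlr4 window, nor in the same window of Cd14. Among the windows of all 33469 promoters in the table, 6.33% held the NF-kB consensus, 9.22% the C/EBP motif, 6.34% the AP-1 motif and 12.9% the TATA box. These matches are letters in a sequence, and no binding was measured.

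Library totals ran from 23892226 to 44977459 counts. Levels are given as CPM, counts scaled to a common library size with TMM factors, and fold changes with tests come from the quasi-likelihood test of edgeR, fitted to all 10 libraries, with p-values adjusted over the 16346 genes tested and a gene called at an adjusted p under 0.05. Y-chromosome reads were uneven within and between groups: on 7 Y features, both libraries of honokiol plus indomethacin, indomethacin replicate 1 and control replicate 1 had 2733 to 4438 counts, and the other 6 had at most 47. The tables of both aspirin and both diclofenac libraries end in 2 empty lines and the other tables in 1, so a difference in handling that follows those drugs cannot be told apart from them. All 6 members passed the filter on low counts. S100a8 and Lcn2 passed it only through treated libraries, because both control libraries were under the filter's level of 0.285 CPM for these genes, so a gene with their pattern had to differ to be tested at all; the other 4 members were above that level in both controls.

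Calprotectin transcripts were scarce in control mucosa and higher in every NSAID library, and both subunits rose with diclofenac and with aspirin. S100a8 (ENSRNOG00000011557) is listed on chromosome 2 from 190073815 to 190074354 with 2 exons and S100a9 (ENSRNOG00000011483) from 190097554 to 190100276 with 3 exons, on the opposite strand. The genes stand 23199 bases apart with 0 other listed features between them. No header or label names the build of these coordinates. S100a8 had 53 and 125 counts with indomethacin, 276 and 459 with diclofenac and 20 and 362 with aspirin, against 4 and 2 in control. In CPM, S100a8 stood at 1.48 and 3.21 with indomethacin, 6.26 and 10.9 with diclofenac, 0.736 and 8.57 with aspirin, and 0.126 and 0.0668 in control. Every NSAID library was thus above both controls, and the aspirin libraries differed from each other by 11.6 times. S100a9 stood at 4.74 and 7.32 CPM with indomethacin, 15.8 and 26.9 CPM with diclofenac, 5.56 and 18.8 CPM with aspirin, and 1.42 and 0.434 CPM in control. Its groups did not overlap with control either, and diclofenac was the highest group for both subunits.

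**Figure D1:**
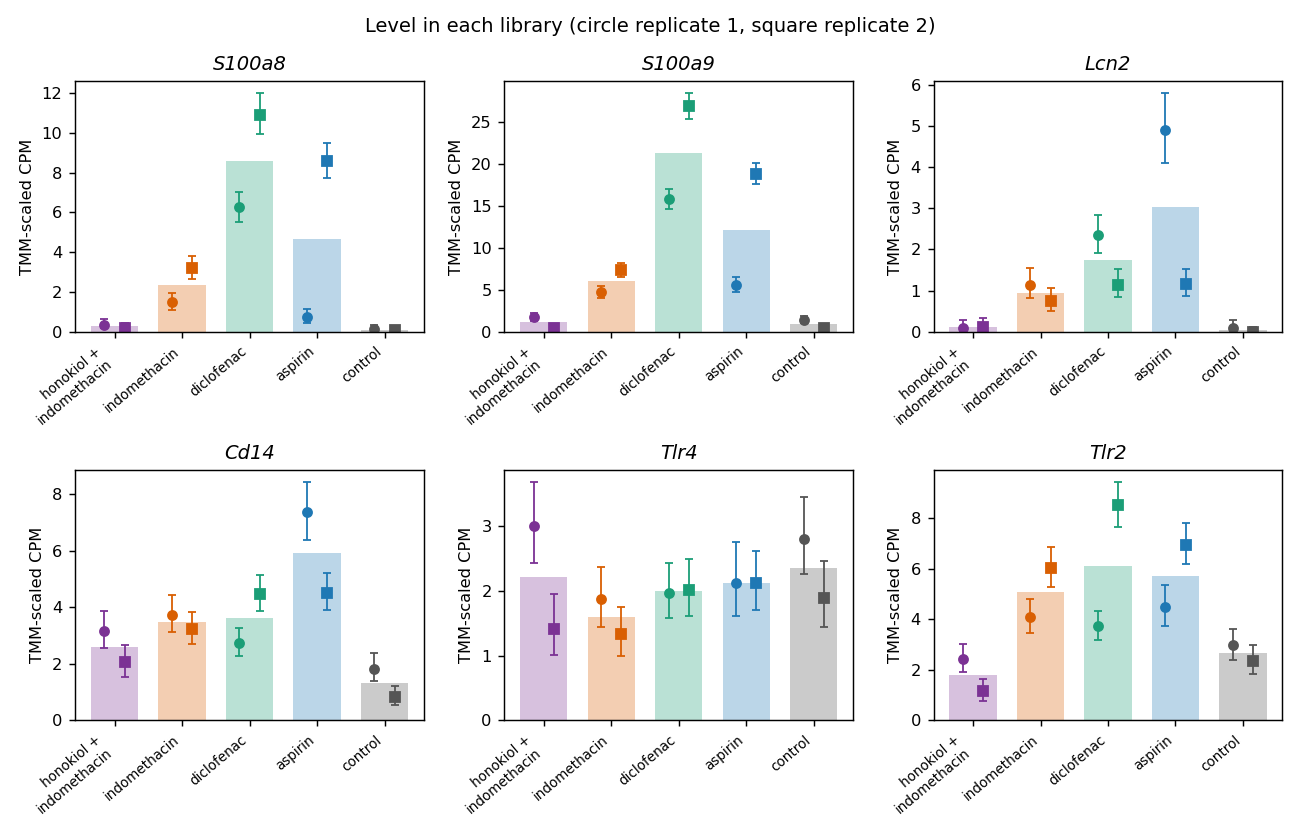
Level of each of the 6 genes in every library, as TMM-scaled CPM (vertical axes start at 0). Bars are group means of 2 libraries, circles are replicate 1, squares are replicate 2, and whiskers are exact 95% Poisson intervals that cover counting error only. S100a8, S100a9 and Lcn2 stood higher in the libraries of each NSAID alone than in the honokiol plus indomethacin or the control libraries, while the Tlr4 libraries ranged from 1.34 to 3.01 CPM over all groups.

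S100a8 rose with diclofenac by a log2 fold change of 6.41 ± 1.4 and with aspirin by 5.55 ± 1.41 (SE; edgeR adjusted p = 0.042 and 0.041). S100a9 rose with diclofenac by 4.51 ± 0.9 and with aspirin by 3.71 ± 0.88 (SE; edgeR adjusted p = 0.033 and 0.035). With indomethacin the log2 fold changes were 4.54 ± 1.44 for S100a8 and 2.69 ± 0.87 for S100a9, and neither passed (SE; edgeR adjusted p = 0.32 and 0.33). The 95% intervals of these were 1.12 to 7.97 and 0.61 to 4.76. The spread in these tests is shared by all 10 libraries, and the 2 aspirin libraries are the most unlike pair for S100a8. With aspirin replicate 1 left out S100a8 was called with indomethacin at a log2 fold change of 4.55 ± 0.62, and with aspirin replicate 2 left out at 4.54 ± 0.62 (SE; edgeR adjusted p = 0.011 and 0.0097). S100a9 stayed uncalled with indomethacin in both of those fits, at 2.69 ± 0.72 (SE) in each. The calls of S100a8 with diclofenac and aspirin lay close to the threshold. Each was kept in 2 of the 10 fits that left out 1 library, those without aspirin replicate 1 or 2, while the log2 fold changes over the 10 fits ran from 5.95 to 6.96 with diclofenac and from 2.87 to 6.41 with aspirin. S100a9 kept its diclofenac call in 4 of the 10, those without a honokiol plus indomethacin or an aspirin library, at 3.93 to 5.64. It kept its aspirin call in 3 of the 10, those without a honokiol plus indomethacin library or without diclofenac replicate 2, at 2.56 to 4.85. When Y reads entered as a further term, S100a8 had log2 fold changes of 6.02 ± 1.68 with diclofenac and 5.16 ± 1.69 with aspirin (SE; edgeR adjusted p = 0.15 and 0.14). S100a9 then had 4.63 ± 1.17 and 3.83 ± 1.16 (SE; edgeR adjusted p = 0.12 for both), so neither subunit was called in that model. When only the aspirin and control libraries were fitted, S100a8 had 5.58 ± 1.97 and S100a9 3.75 ± 0.94 with aspirin, and neither was called (SE; edgeR adjusted p = 0.22 and 0.095). Scaling by total counts without factors also left both subunits uncalled, S100a8 at 6.54 and S100a9 at 4.65 with diclofenac (edgeR adjusted p = 0.084 and 0.07) and at 5.79 and 3.98 with aspirin (edgeR adjusted p = 0.066 and 0.057). A replicate block left S100a9 uncalled, at 4.44 with diclofenac and 3.6 with aspirin (edgeR adjusted p = 0.058 and 0.061). Over all 18 alternatives the adjusted p of S100a8 ran from 2.8e-19 to 0.93 with indomethacin, 1.9e-41 to 0.23 with diclofenac and 1.1e-30 to 0.22 with aspirin, the lowest each time from the fit with no low-count filter. Within the libraries without Y reads, S100a9 averaged 21.4 CPM in 2 diclofenac and 12.2 CPM in 2 aspirin libraries, against 0.434 CPM in the single control. That control is the lower of the 2 for both subunits. Only indomethacin had a library of each kind, as control did. Its ratio to control was 16.9 without and 3.34 with Y reads for S100a9, and 48.1 and 11.7 for S100a8, each from single libraries.

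The 2 subunits were not in a constant ratio. Per kilobase of listed exon, S100a9 exceeded S100a8 in every library. The ratio of S100a9 to S100a8 per kilobase was 1.8 and 1.76 with diclofenac, 2.29 and 1.63 with indomethacin, and 8.03 and 4.64 in control. In aspirin replicate 1, the library low in S100a8, it was 5.39 (95% interval 3.37 to 9.08), against 1.57 (1.38 to 1.78) in aspirin replicate 2. With honokiol plus indomethacin it was 3.51 and 1.86. The control and honokiol values rest on 2 to 11 counts of S100a8, and their intervals are wide: 2.93 to 30.8 and 1.05 to 42.4 in control, and 1.81 to 7.43 and 0.621 to 6.65 with honokiol plus indomethacin.

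Lcn2 was close to undetected in control mucosa and rose with aspirin and with diclofenac. Lcn2 (ENSRNOG00000013973) is listed on chromosome 3 from 11414186 to 11417546, with 6 exons. It had 41 and 29 counts with indomethacin, 103 and 48 with diclofenac and 133 and 49 with aspirin, against 3 and 0 in control. In CPM this was 1.14 and 0.745 with indomethacin, 2.34 and 1.14 with diclofenac, 4.89 and 1.16 with aspirin, and 0.0947 and 0 in control. All 6 NSAID libraries lay above both controls. With diclofenac Lcn2 rose by a log2 fold change of 5.07 ± 1, and its rise in the aspirin group was 5.84 ± 0.99 (SE; edgeR adjusted p = 0.016 and 0.0074). With indomethacin it was 4.18 ± 1.04 and was not called (SE; edgeR adjusted p = 0.12, 95% interval 1.88 to 6.48). Because the controls held 3 counts in all, the fitted folds carry wide error: the ratio of counts to control had 95% counting intervals of 18.1 to 263 with aspirin, 12.1 to 177 with diclofenac and 6.31 to 95.5 with indomethacin. The aspirin call of Lcn2 was kept in all 18 alternatives run, including the term for Y reads and each of the 10 fits that left out 1 library. Its log2 fold change moved in those 10 fits, from 4.48 without aspirin replicate 1 to 9.73 without control replicate 1, which leaves the control with 0 counts. With diclofenac the call was kept in 16 of 18; the exceptions were the fits without control replicate 1, at 8.95 ± 1.99, and without control replicate 2, at 4.18 ± 1.14 (SE; edgeR adjusted p = 0.06 and 0.055). With indomethacin Lcn2 was called in 6 of 18 alternatives: no low-count filter, DESeq2, the replicate block, the 2 groups alone, and the fits without aspirin replicate 1 or 2.

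Among the sensors, Cd14 rose with aspirin. Cd14 (ENSRNOG00000017819) is listed on chromosome 18 from 29560365 to 29562153, with 2 exons. It had 3.74 and 3.24 CPM with indomethacin, 2.74 and 4.48 CPM with diclofenac and 7.36 and 4.52 CPM with aspirin, against 1.83 and 0.835 CPM in control. No NSAID library overlapped with the controls, which differed from each other by 2.19 times. With aspirin Cd14 was 4.41-fold higher, a log2 value of 2.14 ± 0.41 (SE; edgeR adjusted p = 0.011), and the call was lost only without aspirin replicate 1, at 1.76 ± 0.46 (SE; edgeR adjusted p = 0.075), among the 18 alternatives. With diclofenac it was 1.43 ± 0.41, just outside the threshold, and with indomethacin 1.38 ± 0.41 (SE; edgeR adjusted p = 0.056 and 0.21). DESeq2 called the diclofenac difference, at 1.45 ± 0.44 (SE; DESeq2 adjusted p = 0.015); over its 18 alternatives the adjusted p ran from 0.00025 to 0.23.

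Tlr2 had higher values in every NSAID library than in either control, without passing the test. Tlr2 (ENSRNOG00000009822) is listed on chromosome 2 from 182840727 to 182846061, with 2 exons. It stood at 4.1 and 6.04 CPM with indomethacin, 3.72 and 8.52 CPM with diclofenac and 4.49 and 6.96 CPM with aspirin, against 2.97 and 2.37 CPM in control. In log2 fold change, indomethacin gave 0.92 ± 0.44, diclofenac 1.19 ± 0.44 and aspirin 1.1 ± 0.44 (SE; edgeR adjusted p = 0.54, 0.11 and 0.099). Their 95% intervals were -0.05 to 1.9, 0.22 to 2.17 and 0.13 to 2.08. A log2 difference of 1 lies inside each of them. With diclofenac the value turned on the library left out: it was 0.48 without diclofenac replicate 2 and 1.7 without diclofenac replicate 1, where it was called (edgeR adjusted p = 0.57 and 0.046). With aspirin it ran from 0.74 to 1.38 over the 10 fits that left out 1 library and was called in none of them. Tlr2 was called with aspirin at 1.14 ± 0.35 when only the aspirin and control libraries were fitted (SE; edgeR adjusted p = 0.039). Without a low-count filter it was called with all 3 drugs (edgeR adjusted p = 0.044 with indomethacin, 0.00088 with diclofenac and 0.0021 with aspirin).

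Tlr4 differed from the other 5. Tlr4 (ENSRNOG00000010522) is listed on chromosome 5 from 82587420 to 82601052, with 3 exons. It had 1.87 and 1.34 CPM with indomethacin, 1.97 and 2.02 CPM with diclofenac and 2.13 CPM in both aspirin libraries, against 2.81 and 1.9 CPM in control. Both indomethacin libraries lay below both controls, by a small margin, and the diclofenac and aspirin libraries lay between the controls. The log2 fold changes were -0.56 ± 0.37, -0.24 ± 0.37 and -0.15 ± 0.37 (SE; edgeR adjusted p = 0.69, 0.72 and 0.8). The 95% intervals were -1.38 to 0.26 with indomethacin, -1.05 to 0.57 with diclofenac and -0.96 to 0.67 with aspirin, so rises as large as those fitted for Cd14 lie outside them. The sign with diclofenac and aspirin turned positive under some settings, among them the term for Y reads, at 0.05 and 0.14.

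**Figure D2:**
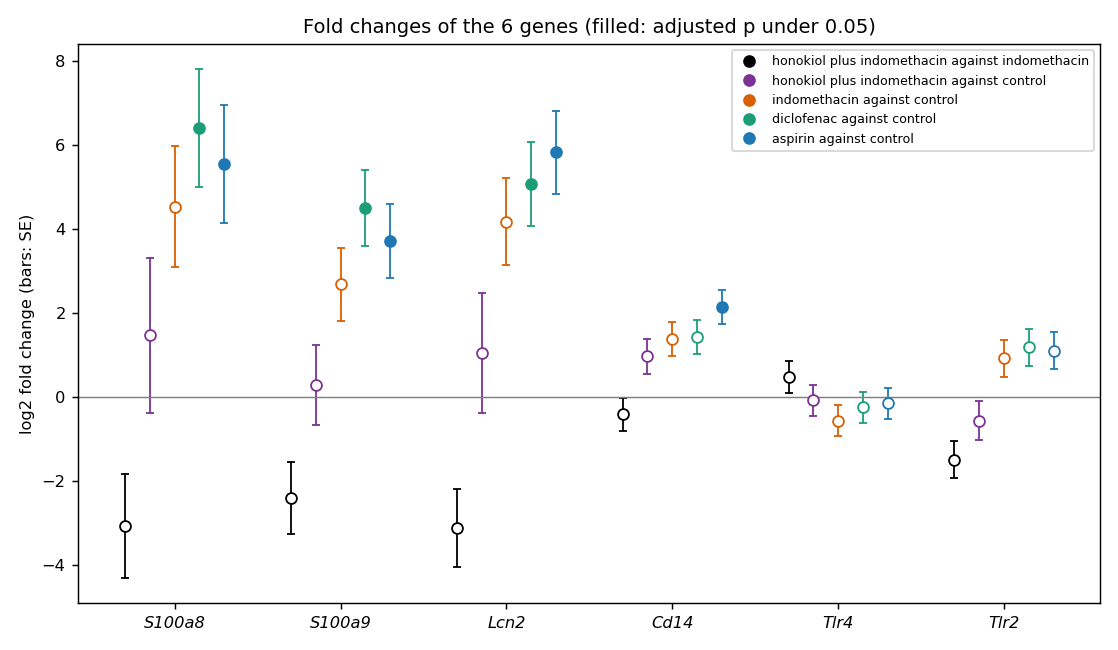
Log2 fold change of each of the 6 genes in the 5 comparisons (vertical axis, no unit), with bars for the standard error of the edgeR fit; filled circles passed an adjusted p under 0.05. The filled circles are S100a8, S100a9 and Lcn2 with diclofenac and aspirin and Cd14 with aspirin, and the Tlr4 values lie within 0.56 of 0 in all 5 comparisons.

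Against control, 4 of the 6 members were called higher with aspirin, where 9.5% of all tested genes were. With diclofenac it was 3 of 6, against 4.76% of all tested genes, and with indomethacin 0 of 6, against 0.752%. None of the 6 was called lower with any of the 3 drugs, where the background was 8.26% with aspirin, 3.11% with diclofenac and 0.0245% with indomethacin. Of the 4 members that could be tested whatever the treated libraries held, S100a9 and Cd14 were called with aspirin and S100a9 with diclofenac. Groups that did not overlap are a weaker criterion: both libraries lay above both controls for 5 of 6 members with each drug, as did 20.1% of all tested genes with indomethacin, 27% with diclofenac and 30.4% with aspirin. Those 5 include S100a8 and Lcn2, which passed the filter only through treated libraries. The others are S100a9, Cd14 and Tlr2, above the filter's level in both controls. Both indomethacin libraries lay below both controls for 1 of 6, Tlr4, as did 18.2% of all tested genes. The median log2 fold change of the 6 members was 2.03 with indomethacin, 2.97 with diclofenac and 2.93 with aspirin, against -0.02, -0.01 and 0 over all tested genes. These medians include S100a8 and Lcn2, which passed the filter only through treated libraries. They are therefore partly set by the filter and are no even comparison with all tested genes. Ranked among all 16346 genes by log2 fold change with aspirin, S100a9 was number 135, Cd14 536, Tlr2 2093 and Tlr4 9396. With diclofenac these 4 were number 103, 933, 1254 and 10661, and with indomethacin 234, 678, 1226 and 15176. The 3 comparisons share their controls, and the drugs were given at different doses, so their values stand side by side and were not tested against each other.

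**Figure D3:**
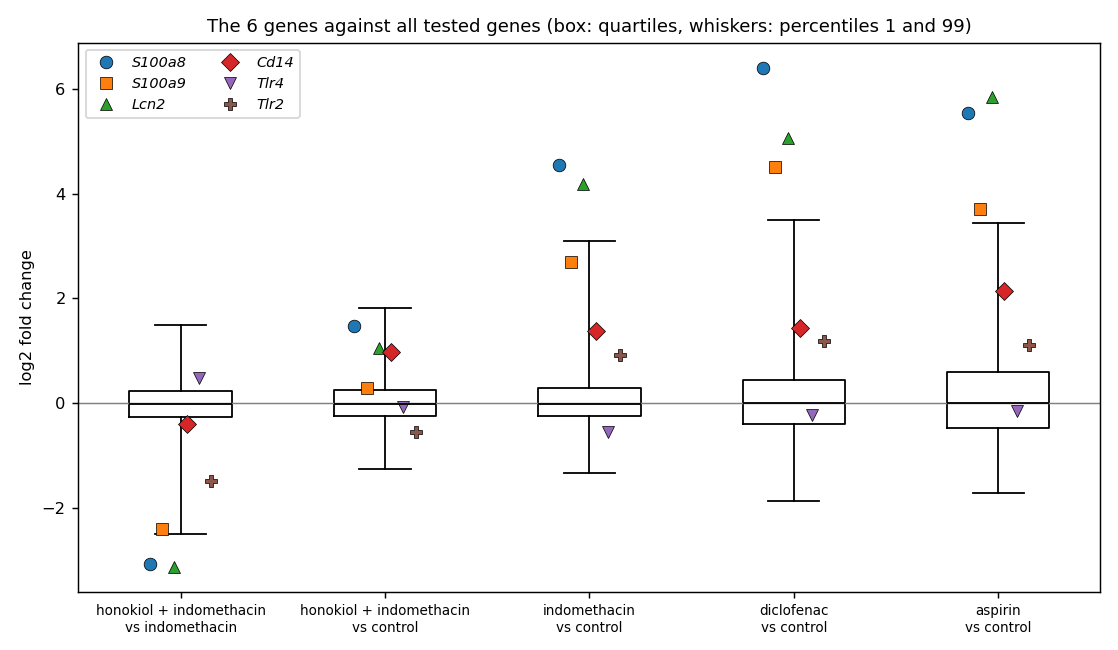
Log2 fold changes (vertical axis) of all 16346 tested genes in each of 5 comparisons, drawn as a box of the quartiles with whiskers to percentiles 1 and 99, with the 6 genes as symbols. S100a8 and Lcn2 lie beyond the upper whisker with each NSAID alone and beyond the lower whisker for honokiol plus indomethacin against indomethacin. Both passed the filter only through treated libraries, so their place among tested genes is partly set by the filter. S100a9, above the filter's level in both controls, lies beyond the upper whisker with diclofenac and aspirin. The Tlr4 symbols stay inside the whiskers.

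Honokiol plus indomethacin was compared with indomethacin because the protocol speaks of protection by honokiol. The calprotectin, Lcn2 and Tlr2 values were lower than with indomethacin alone, and none of the 6 differences passed the test. S100a8 had 0.356 and 0.187 CPM with honokiol plus indomethacin against 1.48 and 3.21 CPM with indomethacin. S100a9 had 1.75 and 0.486 CPM with honokiol plus indomethacin against 4.74 and 7.32 CPM with indomethacin. Lcn2 had 0.0971 and 0.112 CPM with honokiol plus indomethacin against 1.14 and 0.745 CPM with indomethacin. For these 3 genes, and for Tlr2 with 2.43 and 1.16 CPM after honokiol plus indomethacin against 4.1 and 6.04 CPM after indomethacin, the groups were well apart. Cd14 had 3.17 and 2.06 CPM with honokiol plus indomethacin and 3.74 and 3.24 CPM with indomethacin, a narrow gap. Tlr4 had 3.01 and 1.42 CPM with honokiol plus indomethacin, against 1.87 and 1.34 CPM with indomethacin, and these groups overlapped. Both honokiol libraries were below both indomethacin libraries for 5 of 6 members and for 23.6% of all tested genes. Those 5 include S100a8 and Lcn2, which passed the filter only through treated libraries, so their place is partly set by the filter. Of the 4 members above the filter's level in both controls, S100a9, Cd14 and Tlr2 lay below and Tlr4 overlapped.

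The log2 differences between honokiol plus indomethacin and indomethacin were -3.07 ± 1.23 for S100a8, -2.4 ± 0.86 for S100a9 and -3.13 ± 0.93 for Lcn2 (SE; edgeR adjusted p = 0.5, 0.45 and 0.28). Tlr2 had -1.49 ± 0.45, Cd14 -0.41 ± 0.4 and Tlr4 0.48 ± 0.38 (SE; edgeR adjusted p = 0.3, 0.82 and 0.78). The 95% intervals were -6.01 to -0.14 for S100a8, -4.44 to -0.37 for S100a9, -5.19 to -1.08 for Lcn2 and -2.49 to -0.48 for Tlr2, before any adjustment for the number of genes. Called were 0 of 6 members, against 0.3% of all tested genes called lower and 0.0428% called higher. DESeq2 called 1 member, Lcn2, at -3.17 ± 0.88 (SE; DESeq2 adjusted p = 0.025), and over the 18 alternatives its adjusted p ran from 8.9e-06 to 1. A fit of the 4 libraries of these 2 groups alone called S100a8 at -3.06 ± 0.52 and Lcn2 at -3.12 ± 0.58 (SE; edgeR adjusted p = 0.021 and 0.029); the adjusted p of S100a8 over its alternatives ran from 7.8e-12 to 1. Both honokiol libraries held Y reads, as did 1 of the 2 indomethacin libraries; against that library alone the ratio of mean CPM was 0.184 for S100a8, 0.236 for S100a9, 0.0916 for Lcn2 and 0.438 for Tlr2.

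Against control, honokiol plus indomethacin gave 0 calls among the 6 members and 0% of all tested genes called in either direction by edgeR, with 816 genes at an unadjusted p under 0.05; DESeq2 called 0 of the 6 members and 18 genes in all. Lcn2 had 3 and 3 counts with honokiol plus indomethacin against 3 and 0 in control, a ratio with a 95% counting interval of 0.457 to 13.2. S100a8 had 11 and 5 counts against 4 and 2, and its ratio had an interval of 1.06 to 8.9, which covers counting error only. S100a9 had 54 and 13 counts against 45 and 13, and its log2 difference was 0.28 with an SE of 0.95 and an edgeR adjusted p of 0.95. Of the 4 members above the filter's level in both controls, Cd14 had the largest log2 fold change, at 0.97 ± 0.42 (SE; edgeR adjusted p = 0.83), with 3.17 and 2.06 CPM against 1.83 and 0.835 CPM. Tlr2 had -0.56 ± 0.46 and Tlr4 -0.08 ± 0.37 (SE; edgeR adjusted p = 0.83 and 0.97). Both honokiol libraries lay above both controls for 3 of 6 members, S100a8, Lcn2 and Cd14, as did 18.3% of all tested genes. For Lcn2 the values were 0.0971 and 0.112 CPM against 0.0947 and 0 CPM. Its lead over control replicate 1 rests on scaling, since those libraries held 3 counts each. S100a8 and Lcn2 passed the filter only through treated libraries, so the count is no even comparison with all tested genes. The median log2 fold change over the 6 members was 0.63, against -0.01 over all tested genes. That median also includes S100a8 and Lcn2, which passed the filter only through treated libraries. With 95% intervals as wide as -2.93 to 5.87 for S100a8 and -2.1 to 4.19 for Lcn2, these libraries do not show whether levels after honokiol plus indomethacin equal those of control.

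Per kilobase of listed exon, the order of the 5 groups can be set beside the order of the genes. S100a9 was the most abundant member by mean in all 5 groups. It stood at 40.5 ± 14.9 CPM per kilobase with diclofenac, 23.1 ± 17.8 with aspirin and 11.4 ± 3.46 with indomethacin (SD, n = 2 each). With honokiol plus indomethacin it was 2.12 ± 1.69, and in control 1.76 ± 1.32 (SD, n = 2 each). For both subunits the groups ran diclofenac, aspirin, indomethacin, honokiol plus indomethacin and control by mean. For both, the aspirin libraries overlapped with the diclofenac and the indomethacin libraries, and the honokiol plus indomethacin libraries overlapped with control for S100a9 but not for S100a8. For Lcn2 the order was aspirin, diclofenac, indomethacin, honokiol plus indomethacin and control, where aspirin overlapped with diclofenac, and diclofenac and indomethacin met at 1.14 CPM. Lcn2 reached 3.4 ± 2.97 CPM per kilobase with aspirin, against 0.0533 ± 0.0754 in control (SD, n = 2 each). For Cd14 aspirin came first at 3.5 ± 1.18 CPM per kilobase, above diclofenac by a margin of 4.52 to 4.48 CPM between their nearest libraries. Diclofenac and indomethacin overlapped at 2.13 ± 0.721 and 2.05 ± 0.208 CPM per kilobase, against 0.785 ± 0.415 in control (SD, n = 2 each). Tlr2 ran from 2.36 ± 1.31 CPM per kilobase with diclofenac through aspirin and indomethacin, which overlapped with it and with each other, to control at 1.03 ± 0.163 and honokiol plus indomethacin at 0.692 ± 0.346, which overlapped with control (SD, n = 2 each). Tlr4 was within 0.48 to 0.706 CPM per kilobase as a mean in all 5 groups, lowest with indomethacin and highest in control. In control mucosa the order of the genes themselves was S100a9, Tlr2, Cd14, Tlr4, S100a8 and Lcn2 by mean level per kilobase.

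Within the 3 NSAID groups the members did not all vary together. In each of the 3 NSAID groups, the library that was higher in S100a8, S100a9 and Tlr2 was the one lower in Lcn2. With aspirin the higher library had 11.6 times the S100a8, 3.39 times the S100a9 and 1.55 times the Tlr2 level of the other, and 0.237 times its Lcn2 level. With diclofenac these ratios were 1.75, 1.7, 2.29 and 0.489, and with indomethacin 2.17, 1.54, 1.47 and 0.652. All of these had 95% counting intervals that leave out 1, except Lcn2 with indomethacin (0.39 to 1.07). Cd14 went with Lcn2 in the aspirin libraries, at a ratio of 0.614, and with calprotectin in the diclofenac libraries, at 1.63. Tlr4 was nearly equal in the paired libraries of diclofenac and aspirin, at 1.03 and 0.998. In honokiol plus indomethacin replicate 1 was the higher library for every member but Lcn2, which had 3 counts in each, and in control replicate 1 was the higher for all 6. For S100a9 the lower library had 0.278 times the level of the higher with honokiol plus indomethacin and 0.306 times in control. With 2 libraries a group these ratios are descriptions.

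**Figure D4:**
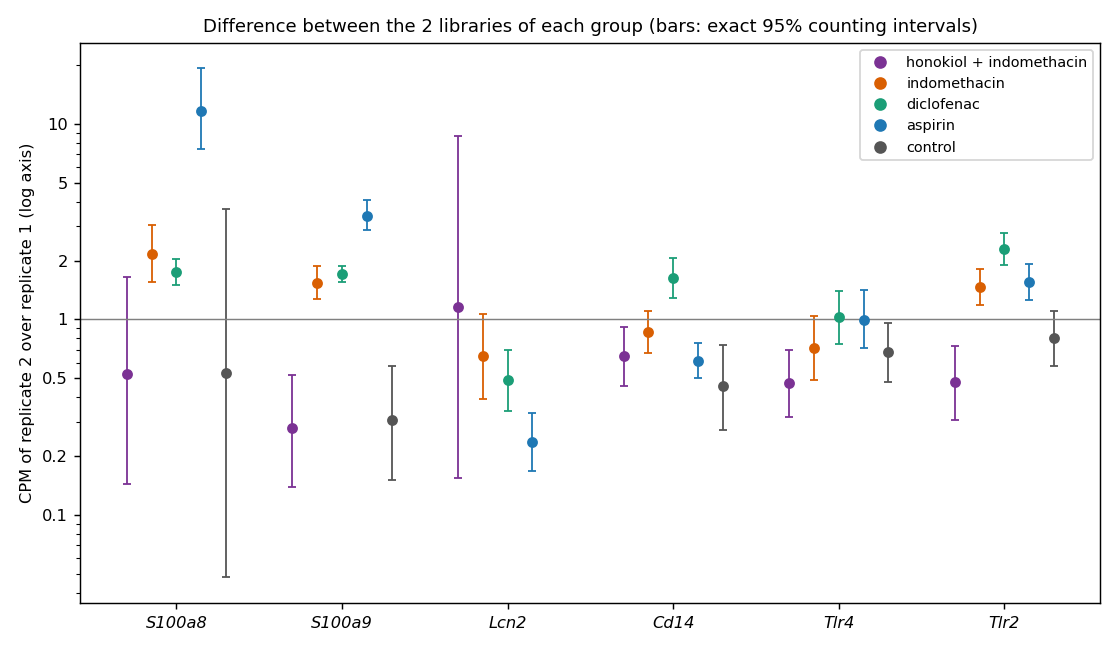
Ratio of the CPM of replicate 2 to that of replicate 1 within each group (vertical log axis), for the 6 genes, with exact 95% intervals that cover counting error only; Lcn2 in control is left out because replicate 2 held 0 counts. In the indomethacin, diclofenac and aspirin groups the S100a8, S100a9 and Tlr2 ratios lie above 1 and the Lcn2 ratios below 1.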

How the data were processed

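RNA of rat gastric mucosa was sequenced in 10 libraries, 2 in each of 5 groups taken from the sample titles. The authors deposited 1 table per library, with raw counts as whole numbers in the columns that featureCounts writes, per the file headers. The submitters' processing notes name DESeq2, featureCounts, SAMtools, HISAT2 2.1.0, cutadapt 1.16, FastQC 0.11.7 and bcl2fastq. The genome build, the strand setting and the handling of multi-mapping reads: not given in the sources used here. None of the 6 genes overlaps another listed feature. Counts were tested with edgeR 4.0.16 in R 4.3.3 (TMM factors, filterByExpr with minimum count 10 and minimum total 15, robust quasi-likelihood fit, group as the only term, 5 residual degrees of freedom), after the fit was tested on simulated data. The standard error is the log2 fold change divided by the square root of F, and 95% intervals use the t quantile of the fit. CPM values use the TMM factors. Poisson and binomial 95% intervals cover counting error only. Alternatives were RLE factors, no filter, a stricter filter (1 CPM and 10 counts in 2 libraries), DESeq2 1.42.0, the 2 groups alone, a replicate block, a term for Y reads (over 1000 counts on those Y features that total 50 or more and are at 0 in some library), each library left out, and, added after seeing the data, total counts without factors. The members, gene lists and the Y-read term were chosen with earlier results of these data known. The rule for named genes takes the 6 members, genes with a like pattern and listed partners, the last 2 only with a symbol; 0 of 32623 identifiers matched the RefSeq table of symbols, so marker and pathway lists could not be applied and no further gene is named. Promoter sequences are from RefSeq in the GRCr8 build.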

Additional observations from a re-analysis of the deposited data

How the results depend on the processing

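The number of the 6 members called higher was 0 with indomethacin, 3 with diclofenac and 4 with aspirin against control, and 0 were called lower with honokiol plus indomethacin than with indomethacin. Without a low-count filter these were 5, 5, 5 and 4. The standard error of S100a8 with indomethacin shrank to 0.48, against 1.44 with the filter, and the cause was not tested. Calls among all genes rose too, over 24106 genes tested against 16346. Genes called higher went from 123 to 736 with indomethacin, 778 to 1656 with diclofenac and 1553 to 2467 with aspirin. Genes called lower with honokiol plus indomethacin than with indomethacin went from 49 to 569. DESeq2 gave 2 with indomethacin and 1 lower with honokiol plus indomethacin than with indomethacin. Among all genes it called 352 and 202 in those directions. A fit of the 2 groups alone gave 3 with indomethacin, 2 lower for honokiol, and 3 with aspirin, where S100a8 and S100a9 were lost and Tlr2 was gained. Among all genes these fits called 252, 192 and 1270 in the same directions. The term for Y reads left 1 with diclofenac and 2 with aspirin, and total counts without factors left 2 with aspirin. Among all genes, the Y term left 280 called higher with diclofenac and 484 with aspirin. Total counts without factors gave 2246 called higher with aspirin. That scaling moved the median of all genes by 0.28 with aspirin, 0.13 with diclofenac, 0.11 for honokiol plus indomethacin against indomethacin and 0.2 for it against control. With single libraries left out the counts ranged from 0 to 2 with indomethacin, 0 to 3 with diclofenac, 2 to 3 with aspirin and, lower with honokiol plus indomethacin than with indomethacin, 0 to 1; diclofenac reached 0 without either control. Of the 538 alternatives of 30 fold changes, 452 kept direction and call, 44 lost a call, 31 gained one and 11 reversed. The reversals were of values that were not called. Tlr4 against control ran from -0.46 to 0.1 with diclofenac, -0.37 to 0.2 with aspirin and -0.73 to 0.37 with honokiol plus indomethacin when single libraries were left out, positive without control replicate 1 in each and also without honokiol plus indomethacin replicate 2 in the last (0.24 and 0.37). It was 0.05 with diclofenac and 0.14 with aspirin with the Y term, and 0.14 with aspirin and 0.15 with honokiol plus indomethacin with total counts. Against indomethacin it ran from -0.17 to 0.91 with honokiol, negative without honokiol plus indomethacin replicate 1. S100a9 for honokiol plus indomethacin against control ran from -0.94 to 1.4, negative without control replicate 2 (-0.31) or honokiol plus indomethacin replicate 1. The replicate numbers of the titles do not pair the samples across all 5 groups. Deviations of same-numbered libraries correlated above 0.1 in 4 of 10 pairs of groups, and the 10 values ran from -0.26 to 0.3. Those 4 are the pairs whose tables share an ending (aspirin with diclofenac, and the other 3 groups among themselves), and the 6 across endings were negative. A replicate block gave 1 call with indomethacin, Lcn2, and left S100a9 uncalled with diclofenac and aspirin at 4.44 and 3.6 (edgeR adjusted p = 0.058 and 0.061). S100a8 and Lcn2 did not pass the filter in the fit of honokiol plus indomethacin and control alone, which gave them no value. Depth limits S100a8 and Lcn2 in control and with honokiol plus indomethacin, which held 0 to 11 counts a library.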
